A study of Mus musculus with 18 samples.

Results

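The Hippo pathway was followed in the kidneys of socially stressed male mice through 10 of its genes, out of 32675 genes in the deposited table. They were 4 kinase genes (Stk3, Stk4, Lats1 and Lats2), the scaffold gene Sav1, the upstream regulator genes Nf2 and Amotl2, the co-activator genes Yap1 and Wwtr1, and the transcription factor gene Tead1. The genes were chosen by name, with group differences from an earlier analysis of the same table in view, so the adjusted p values given for them place them among all genes of the table and are no independent test. All 10 were in the table and all 10 passed the filter on low counts.

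Bulk RNA sequencing was performed on the right kidneys of 18 wild type C57BL/6 mice, labelled as 6-week animals, with 6 mice in each of 3 groups. Mice of the control (Ctrl) group were not defeated. Mice of the PBS and FLX groups went through chronic social defeat stress (CSDS), in which an aggressive CD-1 mouse attacked them for 10 min a day on 14 days. The PBS group received phosphate-buffered saline and the FLX group received fluoxetine, a serotonin reuptake inhibitor used as an antidepressant, at 10 mg per kg per day. The study had no group that received fluoxetine without CSDS, so FLX mice differ from Ctrl mice in both stress and drug. The study deleted 1 PBS mouse for excessive expression of inflammatory genes without numbering it. PBS replicate 6 was taken as that mouse because it had the highest mean rank of 5 inflammation genes, none of them in the Hippo pathway, and values are given over the other 5 PBS mice first and over all 6 where the call changed. In whole kidney, fewer cells of a type and less RNA per cell cannot be told apart.

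The Hippo pathway is a kinase cascade that restrains growth in response to cell contact, cell shape and mechanical tension. MST2 and MST1 (encoded by Stk3 and Stk4), bound to the scaffold SAV1, phosphorylate and activate LATS1 and LATS2, a step that merlin (encoded by Nf2) promotes at the membrane. LATS kinases phosphorylate the co-activators YAP (Yap1) and TAZ (Wwtr1), which are then held in the cytoplasm or degraded. Unphosphorylated YAP and TAZ enter the nucleus and act through TEAD factors on targets such as Ccn1, Ccn2 and Ankrd1. Angiomotin-like 2, encoded by Amotl2, binds YAP at cell junctions, and Amotl2 and Lats2 are themselves known YAP/TEAD targets that feed back on the pathway. In the kidney the pathway is known for its part in nephron development, podocyte survival and fibrosis. Much of its regulation lies in phosphorylation and location of the proteins, which RNA levels do not show.

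TEAD factors are known to bind the letters CATTCC, which read GGAATG on the other strand. Both were searched in the promoter windows of RefSeq (GRCm38.p6), which run from 250 bases before a gene's start to 50 bases after it. Of 32851 windows, 4817 (14.7%) held the letters on either strand. Windows were given for 8 of the 10 genes, all but Tead1 and Stk3, and 5 of the 8 held the letters (Yap1, Wwtr1, Lats2, Sav1 and Amotl2), while Lats1, Stk4 and Nf2 did not. Among 27025 genes with a window, 16.6% held them. Of the YAP/TEAD target genes read below, 4 of 12 with a window held them (33.3%). For the other pathway genes read below it was 11 of 37 (29.7%). The 250 bases before the start are shown for Amotl2, which had the largest fold changes of the 10 genes in PBS versus Ctrl and in FLX versus PBS though not in FLX versus Ctrl, and for the classical targets Ccn1 and Ankrd1, 5′ to 3′ on the strand of the gene with CATTCC or GGAATG in capitals. The stretches lie on chr9:102717554-102717803 (plus strand) for Amotl2, chr3:145649986-145650235 (minus strand) for Ccn1 and chr19:36119845-36120094 (minus strand) for Ankrd1.
Amotl2: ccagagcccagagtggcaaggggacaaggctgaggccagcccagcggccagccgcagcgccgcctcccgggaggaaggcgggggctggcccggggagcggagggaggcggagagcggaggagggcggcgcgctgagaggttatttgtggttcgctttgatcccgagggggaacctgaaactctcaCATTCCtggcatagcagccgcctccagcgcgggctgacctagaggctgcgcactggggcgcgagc
Ccn1: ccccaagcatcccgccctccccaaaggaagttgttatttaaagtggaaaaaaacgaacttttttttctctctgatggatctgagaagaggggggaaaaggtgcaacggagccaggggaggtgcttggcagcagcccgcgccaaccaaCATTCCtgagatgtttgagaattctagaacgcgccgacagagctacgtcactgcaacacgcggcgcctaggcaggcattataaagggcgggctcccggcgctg
Ankrd1: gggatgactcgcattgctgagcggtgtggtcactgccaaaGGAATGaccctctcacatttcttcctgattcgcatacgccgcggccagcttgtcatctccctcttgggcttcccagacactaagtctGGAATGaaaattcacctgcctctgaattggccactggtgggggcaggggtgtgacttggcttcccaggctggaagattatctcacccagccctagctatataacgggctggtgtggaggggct
The letters began 65 bases before the RefSeq start of Amotl2, 103 bases before that of Ccn1, and 210 and 123 bases before that of Ankrd1. RefSeq starts differ from the gene bounds in the deposited annotation. By that annotation Amotl2 starts at 102716672, so its stretch lies inside the gene. The Ankrd1 stretch partly overlaps its gene, which reaches 36119910. A match of letters describes the window only and does not show a bound site.

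Count totals ran from 72149987 to 79061296 in 14 mice and from 48928823 to 52073640 in FLX replicates 3 to 6, so low genes were measured less precisely in these 4 mice. In PBS versus Ctrl, 433 of 20251 genes tested (2.14%) were higher and 339 (1.67%) lower at an adjusted p under 0.05. FLX differed from PBS in 62 genes higher (0.306%) and 85 lower (0.420%), and in FLX versus Ctrl 422 (2.08%) were higher and 322 (1.59%) lower. The balance moved with upper-quartile scaling, to 314 higher and 449 lower (PBS versus Ctrl) and 340 and 412 (FLX versus Ctrl). With limma on log2(FPKM + 0.1) it was 192 higher and 63 lower (FLX versus PBS) and 979 and 235 (FLX versus Ctrl). DESeq2 called more genes than edgeR, with 794 higher and 630 lower in PBS versus Ctrl. By DESeq2 it was 251 and 247 in FLX versus PBS, and 927 and 718 in FLX versus Ctrl. Ctrl replicate 3 stood apart for the Hippo genes, with the highest value among the 6 Ctrl mice for all 10 of them, against 36.9% of all genes tested. Without that mouse more of the 10 genes passed the threshold, as given below, and so did more of all genes. Of 20093 genes tested, 916 were then higher and 746 lower in PBS versus Ctrl. In FLX versus PBS it was 104 and 146, and in FLX versus Ctrl 1557 and 1542. Markers of proximal tubule, the main cell type of the kidney, summed to 1096 to 1377 FPKM in Ctrl. They summed to 1103 to 1338 in the 5 PBS mice and 1088 to 1349 in FLX, with no marker at 0 in any mouse. The left-out PBS replicate 6 had a sum of 733, the lowest of the 18 mice.

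Levels of the 10 genes are given in FPKM, which count sequenced fragments relative to transcript length and library size and so are comparable between genes. In the Ctrl group the highest levels were those of Nf2 (9.53 ± 1.55, SD, n = 6) and Wwtr1 (9.41 ± 1.32), followed by Amotl2 (6.86 ± 1.41), Yap1 (5.19 ± 0.816), Sav1 (4.71 ± 0.989), Lats1 (3.43 ± 0.788), Stk4 (2.73 ± 0.617), Lats2 (2.68 ± 0.587), Tead1 (2.31 ± 0.781) and Stk3 (1.82 ± 0.245). Each neighbour in this order overlapped the next in its range over the 6 Ctrl mice. The order was not the same in the stressed groups. Amotl2 stood at place 3 in Ctrl, at place 5 in PBS (3.94 ± 1.53, SD, n = 5) and again at place 3 in FLX (9.33 ± 1.27, SD, n = 6), where its lowest mouse lay above the highest mouse of Sav1, the next gene. Wwtr1 led in both PBS (11.6 ± 1.27) and FLX (11.6 ± 0.923). Stk3 was the lowest of the 10 genes in each group.

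**Figure D1:**
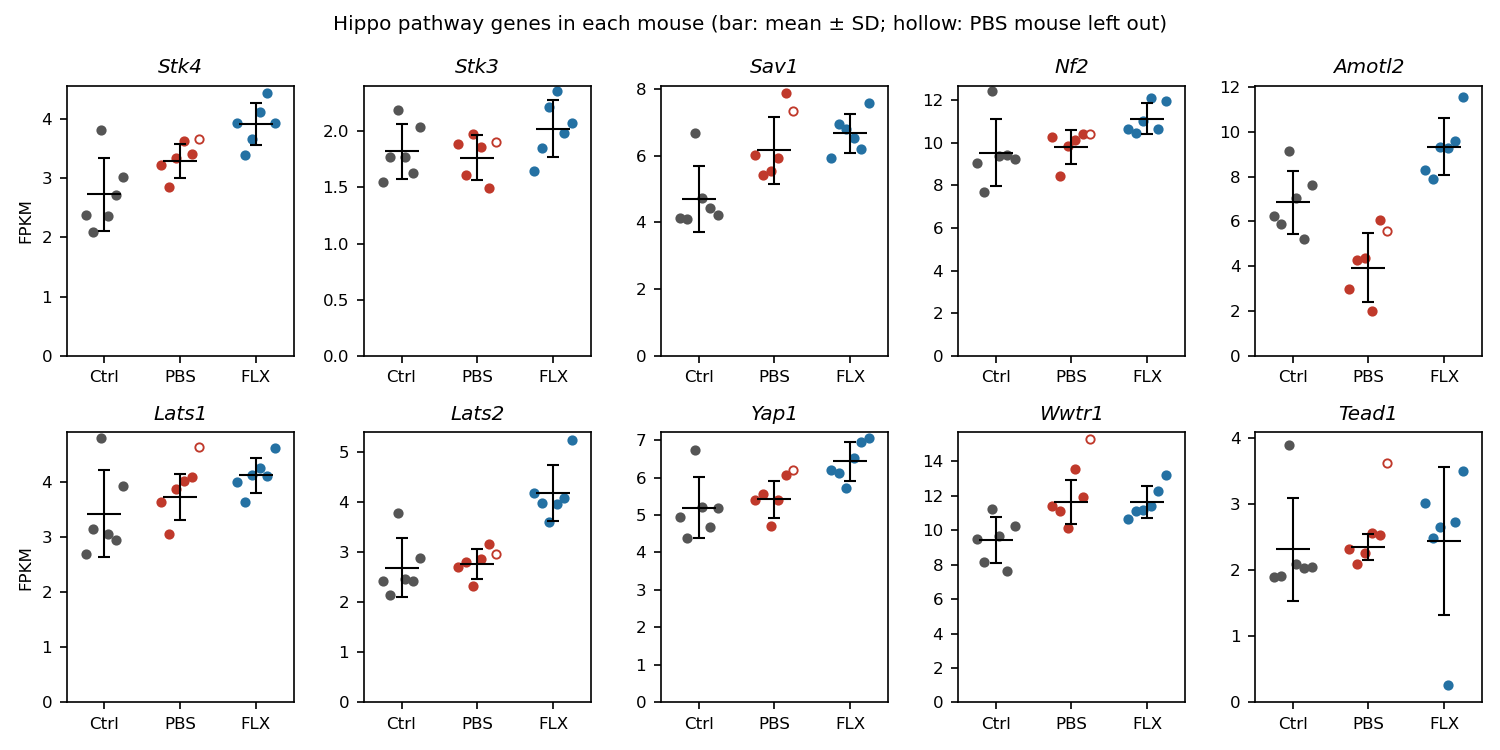
FPKM (vertical axes, each from 0) of the 10 Hippo pathway genes in every mouse of the Ctrl, PBS and FLX groups. Points are mice, bars are mean ± SD, and the hollow point is PBS replicate 6, left out of mean and SD. For Amotl2 the 5 PBS mice lie at 2.02 to 6.06 and the 6 FLX mice at 7.91 to 11.6, and 1 FLX mouse has Tead1 at 0.266.

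Amotl2 (ENSMUSG00000032531, chromosome 9, 102716672 to 102733418, plus strand, GRCm38) was the only one of the 10 genes called in PBS versus Ctrl and also in FLX versus PBS. In Ctrl replicates 1 to 6 it was at 6.23, 5.89, 9.16, 7.02, 5.22 and 7.64 FPKM. In PBS replicates 1 to 5 it was at 3.00, 4.26, 4.36, 2.02 and 6.06 FPKM, and the left-out PBS replicate 6 had 5.57 FPKM. In FLX replicates 1 to 6 it was at 8.32, 7.91, 9.33, 9.29, 9.58 and 11.6 FPKM. Of the PBS mice, 4 lay below every Ctrl mouse and PBS replicate 5 lay inside the Ctrl range, whereas every FLX mouse lay above every PBS mouse, the left-out one included. Ctrl and FLX mice overlapped.

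Between Ctrl and PBS, Amotl2 fell by 0.80 in log2 fold change (fold 0.574, standard error 0.19, edgeR adjusted p = 0.0226). Over all 6 PBS mice the log2 fold change was -0.71 (edgeR adjusted p = 0.0334), and without PBS replicate 1 it was -0.72 and no longer passed the threshold (edgeR adjusted p = 0.0755). From PBS to FLX it rose by 1.16 in log2 (fold 2.24, standard error 0.19, edgeR adjusted p = 0.00731), or by 1.08 over all 6 PBS mice (edgeR adjusted p = 0.0122). The call was kept without any 1 of the 17 mice. FLX versus Ctrl gave a log2 fold change of 0.36 (standard error 0.18, edgeR adjusted p = 0.256), so FLX mice were not shown to differ from Ctrl mice. These comparisons share mice, the PBS mice in both comparisons with PBS and the Ctrl mice in both with Ctrl. With FLX replicates 1 and 2 alone, whose totals were like those of the other groups, Amotl2 differed from PBS by 1.01 on the log2 scale, but edgeR then called 0 of 21863 genes in FLX versus PBS, with 1323 at an unadjusted p under 0.05 (edgeR adjusted p = 0.408 for Amotl2).

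Amotl2 is known to be expressed in endothelial cells, and endothelial markers were read beside it. The 8 markers (Pecam1, Cdh5, Kdr, Flt1, Emcn, Tie1, Ptprb and Egfl7) summed to 42.6 to 57.3 FPKM in Ctrl, 31.7 to 57.5 in the 5 PBS mice and 51.7 to 67.2 in FLX, with no marker at 0 in any mouse. PBS replicate 4, which had the least Amotl2, also had the lowest sum, and PBS replicate 5 had the most Amotl2 and the highest sum of the 5 mice. PBS replicate 3 stood next below replicate 5 in both, with Amotl2 at 4.36 FPKM and a sum of 51.6. Only between PBS replicates 1 and 2 was the order reversed, with Amotl2 at 3.00 and 4.26 FPKM and sums of 47.9 and 42.7. Ctrl replicate 3 and FLX replicate 6 had the most Amotl2 of their groups but not the highest sums (51.3 and 58.6). The left-out mouse had a sum of 80.7. All 8 markers had a positive log2 fold change in FLX versus PBS, with a median of 0.28, and 0 of 8 were called by edgeR or DESeq2, with 4 at an unadjusted edgeR p under 0.05. Between Ctrl and PBS 5 of 8 were positive, with a median of 0.03, 0 called by edgeR, 1 at an unadjusted p under 0.05 and 1 called by DESeq2. In FLX versus Ctrl, where Lats2, Stk4 and Sav1 were called, 7 of the 8 endothelial markers were positive, with a median of 0.33. There edgeR called 2 of them higher (Flt1, log2 fold change 0.66, edgeR adjusted p = 0.0126, and Tie1, 0.40, edgeR adjusted p = 0.0292), 5 were at an unadjusted p under 0.05 and DESeq2 called 3. The part of endothelial content in the differences of Amotl2 and the other Hippo genes was not tested. Over the 17 mice the 3 genes most like Amotl2 among 12098 genes with a mean of at least 1 FPKM were 2700081O15Rik (Pearson's r = 0.938), Tril (0.919), encoding a Toll-like receptor 4 interactor, and Sox18 (0.881), encoding a transcription factor of endothelial cells. Sox18 was at 3.76 ± 0.555 FPKM in Ctrl (SD, n = 6), 2.77 ± 0.854 in PBS (SD, n = 5) and 5.75 ± 0.816 in FLX (SD, n = 6). The mice share their group and library differences, so these likenesses are descriptions.

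The LATS kinases differed in how they moved. Lats2 (ENSMUSG00000021959, chromosome 14, 57689662 to 57746123, minus strand) was at 2.14, 2.44 and 3.78 FPKM in the lowest, median and highest Ctrl mouse. The 5 PBS mice had 2.69, 2.79, 2.33, 2.87 and 3.16 FPKM and the left-out mouse 2.97, while FLX mice had 3.60 (lowest), 4.03 (median) and 5.23 FPKM (highest). PBS and Ctrl mice lay at the same level, every FLX mouse lay above every PBS mouse, and of the Ctrl mice only replicate 3 reached into the FLX range. Lats2 rose by 0.56 (log2) from Ctrl to FLX (standard error 0.12, edgeR adjusted p = 0.0147), a call kept without any 1 of the 17 mice. In FLX versus PBS the difference was 0.50 (standard error 0.12) and missed the threshold (edgeR adjusted p = 0.0697, or 0.0556 over all 6 PBS mice). It passed without Ctrl replicate 3, which enters through the shared estimate of the spread (edgeR adjusted p = 0.0195), with upper-quartile scaling (0.0434), with DESeq2 (adjusted p = 0.00686) and with limma on log2(FPKM + 0.1) (adjusted p = 0.0393). PBS versus Ctrl gave 0.06 (standard error 0.12, edgeR adjusted p = 0.855).

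Lats1 (ENSMUSG00000040021, chromosome 10, 7681214 to 7716460, plus strand) was at 2.69 to 4.80 FPKM in Ctrl, 3.06 to 4.09 in the 5 PBS mice and 3.64 to 4.63 in FLX, with overlap in every comparison. Its log2 fold changes were 0.14 in PBS versus Ctrl, 0.05 in FLX versus PBS and 0.19 in FLX versus Ctrl, and none passed the test (edgeR adjusted p = 0.585, 0.935 and 0.356). Without Ctrl replicate 3 the FLX versus Ctrl difference became 0.29 and passed (edgeR adjusted p = 0.0416).

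Of the kinases upstream of LATS, Stk4 rose in FLX versus Ctrl and Stk3 was not called in any comparison. Stk4 (ENSMUSG00000018209, chromosome 2, 164070322 to 164155524, plus strand) had 2.10, 2.54 and 3.81 FPKM as lowest, median and highest in Ctrl. The PBS mice had 3.22, 2.85, 3.35, 3.63 and 3.41 FPKM (left-out mouse 3.66), and FLX mice had 3.40, 3.94 and 4.44 FPKM as lowest, median and highest. The levels stepped up from Ctrl to PBS to FLX in their medians, with overlap between each pair of groups. FLX versus Ctrl gave a log2 fold change of 0.44 (standard error 0.11, edgeR adjusted p = 0.0362), PBS versus Ctrl one of 0.28 (standard error 0.12, edgeR adjusted p = 0.195) and FLX versus PBS one of 0.16 (standard error 0.12, edgeR adjusted p = 0.703). The FLX versus Ctrl call did not hold without Ctrl replicate 1, 2, 4 or 5 or FLX replicate 1, 5 or 6 (edgeR adjusted p = 0.0527 to 0.0867, log2 fold changes of 0.38 to 0.45). For PBS against Ctrl, Stk4 passed without Ctrl replicate 3 (log2 fold change 0.38, edgeR adjusted p = 0.0232).

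Stk3 (ENSMUSG00000022329, chromosome 15, 34875496 to 35178921, minus strand), the paralog of Stk4, stayed within 1.50 to 2.36 FPKM over all 18 mice. Its log2 fold changes were -0.03, 0.10 and 0.06 in the 3 comparisons, each with a standard error of 0.10 to 0.11 (edgeR adjusted p = 0.911, 0.822 and 0.779).

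Sav1 (ENSMUSG00000021067, chromosome 12, 69965012 to 69987002, minus strand), which encodes the scaffold of the MST kinases, was higher in both stressed groups than in 5 of the 6 Ctrl mice. Ctrl replicates 1 to 6 had 4.13, 4.09, 6.67, 4.73, 4.42 and 4.23 FPKM. PBS replicates 1 to 5 had 6.03, 5.42, 5.55, 5.92 and 7.88 FPKM, and the left-out mouse had 7.35. FLX mice had 5.94 (lowest), 6.66 (median) and 7.57 FPKM (highest). All PBS and FLX mice lay above every Ctrl mouse other than replicate 3, and PBS and FLX mice overlapped. The FLX versus Ctrl difference was 0.42 in log2 (standard error 0.11, edgeR adjusted p = 0.0414). That call did not hold with all 6 PBS mice (edgeR adjusted p = 0.0568) nor without Ctrl replicate 1, 2, 4, 5 or 6, FLX replicate 2, 3, 5 or 6 or PBS replicate 1 (edgeR adjusted p = 0.0519 to 0.102, log2 fold changes of 0.39 to 0.45). Against Ctrl, the PBS mice gave 0.40 (standard error 0.11) and missed the threshold (edgeR adjusted p = 0.0640), which it passed with all 6 PBS mice (0.43, edgeR adjusted p = 0.0334), without Ctrl replicate 3 (0.50, edgeR adjusted p = 0.00529), without PBS replicate 3 (0.44, edgeR adjusted p = 0.0492) and with DESeq2 (0.40, adjusted p = 0.0184). FLX versus PBS gave 0.02 (edgeR adjusted p = 0.975).

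Nf2 (ENSMUSG00000009073, chromosome 11, 4765845 to 4849536, minus strand) was at 7.69, 9.31 and 12.4 FPKM in the lowest, median and highest Ctrl mouse. The PBS mice had 10.2, 8.43, 9.82, 10.1 and 10.4 FPKM, and FLX mice had 10.4, 10.8 and 12.1 as lowest, median and highest. Every FLX mouse lay above every PBS mouse in FPKM, by a narrow margin, while the fitted log2 fold change was 0.09 (standard error 0.09, edgeR adjusted p = 0.797). FPKM are not corrected for differences in composition between libraries. With limma on log2(FPKM + 0.1), the median log2 fold change in FLX versus PBS over the 20251 genes tested was 0.08. Against Ctrl the log2 fold changes were 0.05 for PBS and 0.14 for FLX (edgeR adjusted p = 0.813 and 0.354). Without Ctrl replicate 3, FLX versus Ctrl gave 0.21 and passed (edgeR adjusted p = 0.0433).

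Of the co-activator genes, Wwtr1 (ENSMUSG00000027803, chromosome 3, 57455649 to 57575910, minus strand) was at 9.51, 8.16, 11.2, 9.65, 7.66 and 10.3 FPKM in Ctrl replicates 1 to 6. PBS replicates 1 to 5 had 11.4, 11.1, 10.1, 13.6 and 11.9 FPKM, and the left-out mouse had 15.3, the highest of the 18. FLX mice had 10.6 (lowest), 11.3 (median) and 13.2 FPKM (highest). PBS and Ctrl mice overlapped, as did the other pairs of groups. The log2 fold change in PBS versus Ctrl was 0.32 (standard error 0.09) and missed the threshold (edgeR adjusted p = 0.0691). It passed with all 6 PBS mice (0.38, edgeR adjusted p = 0.0341), without Ctrl replicate 3 (0.36, edgeR adjusted p = 0.0245), without PBS replicate 3 (0.38, edgeR adjusted p = 0.0319) and with DESeq2 (0.32, adjusted p = 0.0229). FLX versus PBS gave -0.10 (edgeR adjusted p = 0.796), and FLX versus Ctrl 0.22 (edgeR adjusted p = 0.172), which became 0.27 and passed without Ctrl replicate 3 (edgeR adjusted p = 0.0498).

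Yap1 (ENSMUSG00000053110, chromosome 9, 7931999 to 8004596, minus strand) was at 4.40, 5.07 and 6.74 FPKM as lowest, median and highest in Ctrl, at 5.39, 5.55, 4.69, 5.40 and 6.07 in PBS replicates 1 to 5, and at 5.71, 6.37 and 7.07 as lowest, median and highest in FLX. FLX medians were the highest and all groups overlapped. Its log2 fold changes were 0.07 (PBS versus Ctrl), 0.15 (FLX versus PBS) and 0.22 (FLX versus Ctrl), with standard errors of 0.08 to 0.09, and none passed (edgeR adjusted p = 0.726, 0.569 and 0.136). Without Ctrl replicate 3 the FLX versus Ctrl difference was 0.30 (edgeR adjusted p = 0.00965).

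Tead1 (ENSMUSG00000055320, chromosome 7, 112679318 to 112906807, plus strand), which encodes a DNA-binding partner of YAP and TAZ, carried single mice far from their groups. FLX replicate 4 had 0.266 FPKM (214 counts) against 2.49 to 3.50 FPKM in the other 5 FLX mice (2036 to 3780 counts). Ctrl replicate 3 had 3.90 FPKM against 1.89 to 2.09 in the other Ctrl mice. The genes next to Tead1 in the table did not gain counts in FLX replicate 4, with 155 for 2310014F06Rik, which overlaps the start of Tead1 on the other strand (104 to 322 in the other FLX mice), and 123 for Rassf10 (87 to 306). With these mice in the fit the standard errors of Tead1 were 0.36 to 0.37 and its log2 fold changes were 0.04, -0.03 and 0.01 (edgeR adjusted p = 0.972, 0.993 and 0.990). Without FLX replicate 4, FLX versus PBS gave 0.21 (edgeR adjusted p = 0.701).

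**Figure D2:**
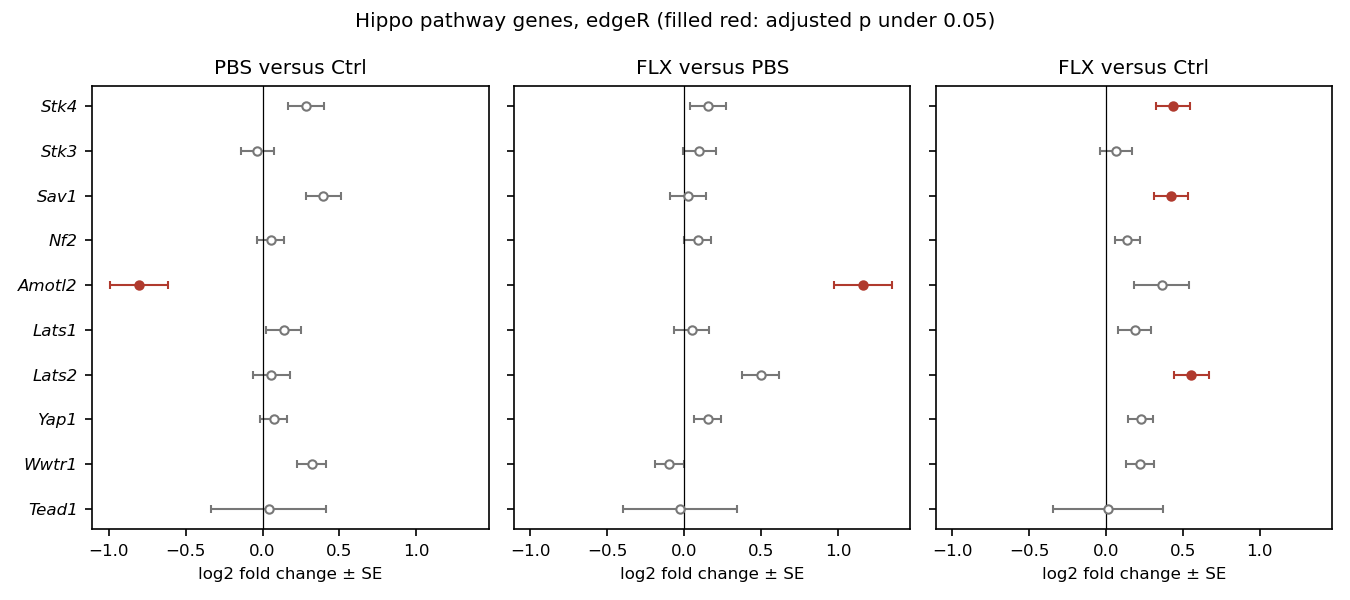
Log2 fold change ± standard error (horizontal axes) of the 10 Hippo pathway genes in PBS versus Ctrl, FLX versus PBS and FLX versus Ctrl, from edgeR over 17 mice. Filled red points passed an adjusted p under 0.05. These were Amotl2 at -0.80 (PBS versus Ctrl) and 1.16 (FLX versus PBS), and Stk4, Sav1 and Lats2 at 0.42 to 0.56 in FLX versus Ctrl.

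Over the 10 genes, PBS versus Ctrl gave 0 called higher and 1 called lower (Amotl2), where 2.14% and 1.67% of all genes were called. FLX versus PBS gave 1 higher (Amotl2) and 0 lower, against 0.306% and 0.420%, and FLX versus Ctrl 3 higher (Lats2, Stk4 and Sav1) and 0 lower, against 2.08% and 1.59%. At an unadjusted p under 0.05 the counts were 4, 2 and 5 of 10, against 17.9%, 11.1% and 20.4% of all genes. The groups did not overlap for 0 of 10 genes in PBS versus Ctrl (3.52% of all genes), for 3 in FLX versus PBS (Amotl2, Lats2 and Nf2, against 2.92%) and for 0 in FLX versus Ctrl (3.40%). All 3 lay above, as did 496 of the 591 such genes in the whole table. The log2 fold changes were positive for 8, 8 and 10 of the 10 genes, with medians of 0.07, 0.09 and 0.22, against 48.9%, 49.5% and 48.8% of all genes and medians of -0.01, 0.00 and -0.01. With upper-quartile scaling Tead1 turned negative in PBS versus Ctrl and FLX versus Ctrl. As the genes were chosen with their differences in view, nothing is read from these counts. Without Ctrl replicate 3 the called genes numbered 4, 2 and 7. Calls over all 20093 genes tested rose as well. They were then 916 higher and 746 lower, 104 and 146, and 1557 and 1542 in the 3 comparisons.

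The YAP/TEAD target genes were read next, as 19 genes known to be driven by YAP and TAZ through TEAD. Of these 18 were tested, and Foxf2 was too low. Compared with Ctrl, PBS mice had 3 lower (Ccn1, Tgfb2 and F3, against 1.67% of all genes) and 1 higher (Arhgef17, against 2.14%). Compared with PBS, FLX mice had 2 higher (Ccn2 and Nuak2, against 0.306%) and 1 lower (Gadd45b, against 0.420%). Compared with Ctrl, FLX mice had 4 higher (Ccn2, Ankrd1, Axl and Arhgef17, against 2.08%) and 1 lower (F3, against 1.59%). Log2 fold changes of the targets were positive for 10 of 18 in PBS versus Ctrl, with a median of 0.18, for 15 of 18 in FLX versus PBS, with a median of 0.23, and for 13 of 18 in FLX versus Ctrl, with a median of 0.20. Over all genes 48.9%, 49.5% and 48.8% were positive. Called targets thus lay on both sides in each comparison.

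Ccn1 (ENSMUSG00000028195, also called Cyr61) encodes a matricellular protein and is an early target of YAP. It was at 25.3, 33.6, 28.2, 25.7, 30.0 and 21.4 FPKM in Ctrl replicates 1 to 6. PBS replicates 1 to 5 had 19.0, 3.93, 9.90, 11.8 and 12.1 FPKM, and the left-out mouse had 13.4. FLX replicates 1 to 6 had 29.6, 22.8, 20.9, 18.7, 33.2 and 29.1 FPKM. Every PBS mouse lay below every Ctrl mouse, and FLX mice lay in or just under the Ctrl range. From Ctrl to PBS, Ccn1 fell by 1.26 in log2 (standard error 0.27, edgeR adjusted p = 0.0131), a call kept in all 28 other settings tried. FLX mice differed from PBS mice by 1.08 in log2 (standard error 0.27) and missed the threshold (edgeR adjusted p = 0.0719), passing without PBS replicate 1 (1.36, edgeR adjusted p = 0.0277), with DESeq2 (1.08, adjusted p = 0.00195) and with limma on log2(FPKM + 0.1) (1.31, adjusted p = 0.0294). FLX versus Ctrl gave -0.18 (edgeR adjusted p = 0.737).

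Ccn2 (ENSMUSG00000019997, also called Ctgf) encodes connective tissue growth factor. Ctrl mice had 16.7 (lowest), 19.7 (median) and 22.1 FPKM (highest). PBS replicates 1 to 5 had 13.3, 16.4, 17.1, 7.89 and 18.9 FPKM, but the left-out PBS replicate 6 had 41.4. FLX replicates 1 to 6 had 33.9, 43.1, 32.7, 44.1, 29.8 and 38.1 FPKM. Every FLX mouse lay above every Ctrl mouse and every PBS mouse other than the left-out one, which lay among the FLX mice. Ccn2 rose by 1.25 (log2) from PBS to FLX (standard error 0.16, edgeR adjusted p = 0.00131) and by 0.83 from Ctrl to FLX (standard error 0.15, edgeR adjusted p = 0.00664), and both calls were kept without any 1 of the 17 mice. Both were lost when PBS replicate 6 was put back (0.88, edgeR adjusted p = 0.109, and 0.83, edgeR adjusted p = 0.0843). PBS versus Ctrl gave -0.41 (edgeR adjusted p = 0.163), or -0.05 with all 6 PBS mice (edgeR adjusted p = 0.939).

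Ankrd1 (ENSMUSG00000024803), which encodes a nuclear ankyrin repeat protein, was low in every group. It was at 0.257 to 0.552 FPKM in Ctrl, at 1.27, 0.352, 0.574, 0.613 and 0.867 in PBS replicates 1 to 5, at 0.346 in the left-out mouse and at 0.568 to 1.35 in FLX. Every FLX mouse lay above every Ctrl mouse, and PBS mice overlapped both. From Ctrl to FLX it rose by 1.39 in log2 (standard error 0.28, edgeR adjusted p = 0.0130). PBS mice differed from Ctrl mice by 1.03 in log2 (standard error 0.29, edgeR adjusted p = 0.0542), and it passed without Ctrl replicate 3, FLX replicate 5, PBS replicate 2 or PBS replicate 3 (edgeR adjusted p = 0.0203 to 0.0498). FLX versus PBS gave 0.36 (edgeR adjusted p = 0.740).

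**Figure D3:**
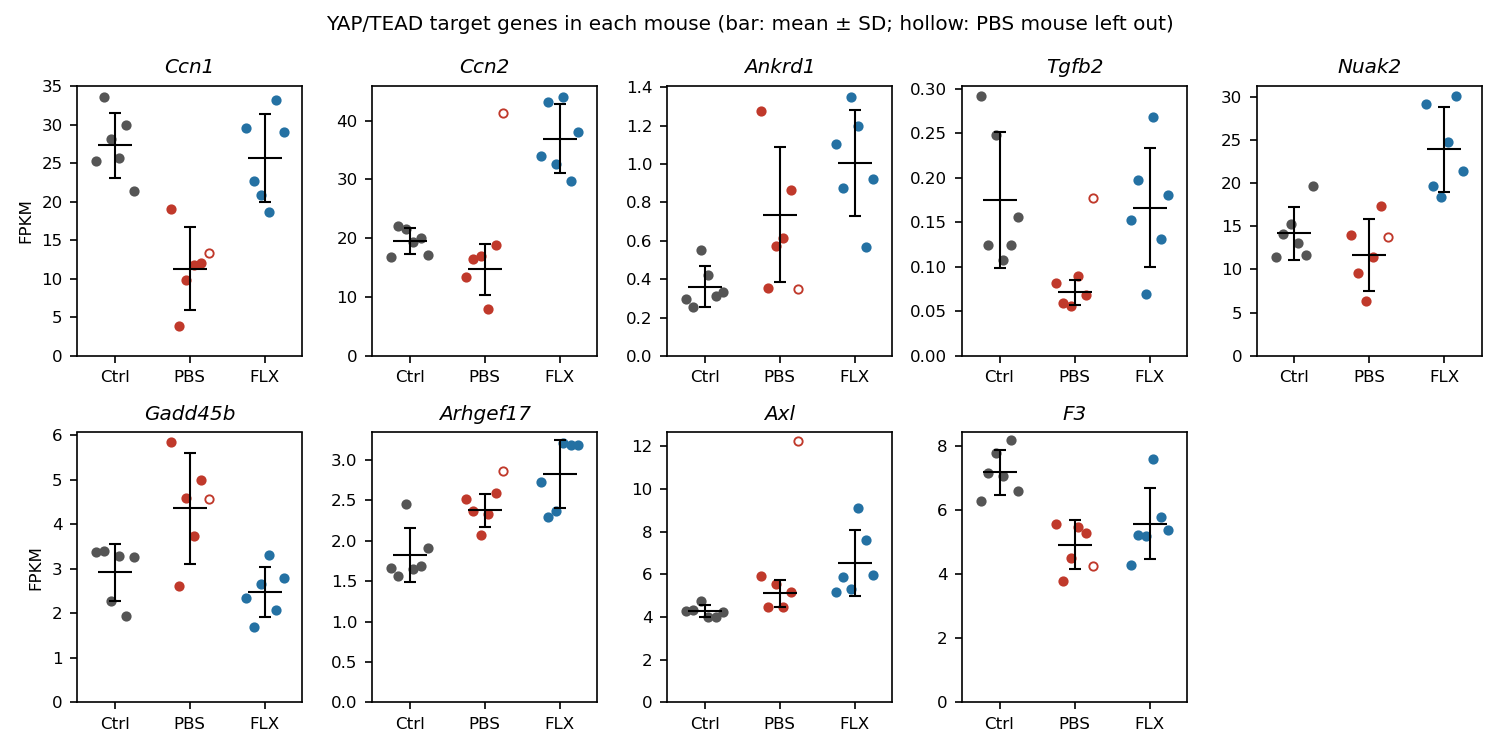
FPKM (vertical axes, each from 0) of 9 YAP/TEAD target genes in every mouse. Points are mice, bars are mean ± SD, and the hollow point is PBS replicate 6, left out of mean and SD. Ccn1 is at 3.93 to 19.0 in the 5 PBS mice against 21.4 to 33.6 in Ctrl, and the hollow Ccn2 point at 41.4 lies among the FLX mice.

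Among the other targets, Nuak2, which encodes an AMPK-related kinase, was at 18.4 to 30.0 FPKM in FLX and 6.36 to 17.3 in the 5 PBS mice, without overlap. Its log2 fold change in FLX versus PBS was 0.93 (standard error 0.21, edgeR adjusted p = 0.0420, and 0.0379 over all 6 PBS mice), and of the 17 fits that left out 1 mouse only those without Ctrl replicate 3, Ctrl replicate 6 or PBS replicate 5 kept the call (edgeR adjusted p up to 0.11). Gadd45b, a stress-inducible gene, ran the other way, with 2.61 to 5.85 FPKM in PBS and 1.70 to 3.31 in FLX. It fell by 0.90 on the log2 scale (standard error 0.21, edgeR adjusted p = 0.0480), a call kept only without Ctrl replicate 3, Ctrl replicate 5, FLX replicate 4 or PBS replicate 2 among those 17 fits (edgeR adjusted p up to 0.14).

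F3, which encodes tissue factor, was lower in both stressed groups, at 6.30 to 8.20 FPKM in Ctrl, 3.79 to 5.57 in PBS and 4.28 to 7.59 in FLX. From Ctrl to PBS it fell by 0.54 in log2 (standard error 0.13, edgeR adjusted p = 0.0227), which no longer passed when Ctrl replicate 2 or 5, or PBS replicate 2 or 3, was omitted (edgeR adjusted p = 0.0502 to 0.0574). From Ctrl to FLX it fell by 0.46 (standard error 0.12, edgeR adjusted p = 0.0414), a call lost with all 6 PBS mice (0.0608) and without any 1 of the Ctrl or FLX mice other than Ctrl replicate 3 and FLX replicate 4 (edgeR adjusted p up to 0.102). Tgfb2, encoding a growth factor of the TGF-β family, was at 0.0565 to 0.0895 FPKM in the 5 PBS mice and 0.107 to 0.291 in Ctrl, with the left-out mouse at 0.178. Between Ctrl and PBS its log2 fold change was -1.27 (standard error 0.34, edgeR adjusted p = 0.0409), or -0.97 with all 6 PBS mice (edgeR adjusted p = 0.122), and the call was kept only without Ctrl replicate 3 or 4 or FLX replicate 3, 4 or 5 of the 17 fits that left out 1 mouse.

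Arhgef17, encoding an activator of RhoA, rose in both stressed groups, from 1.57 to 2.45 FPKM in Ctrl to 2.07 to 2.59 in PBS and 2.29 to 3.21 in FLX. PBS mice differed from Ctrl mice by 0.39 in log2 (standard error 0.11, edgeR adjusted p = 0.0440), a call that was kept only without Ctrl replicate 3, PBS replicate 3 or FLX replicate 2, 3, 4, 5 or 6 among the 17 fits that left out 1 mouse. FLX mice differed from them by 0.55 (standard error 0.10, edgeR adjusted p = 0.00874), a call kept without any 1 mouse. Axl, encoding a receptor tyrosine kinase, was at 4.28 (median) and 4.75 FPKM (highest) in Ctrl and 5.19 to 9.13 in FLX. The rise was 0.51 in log2 (standard error 0.11, edgeR adjusted p = 0.0153), which was lost with all 6 PBS mice (edgeR adjusted p = 0.167). The left-out PBS replicate 6 had 12.2 FPKM.

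**Figure D4:**
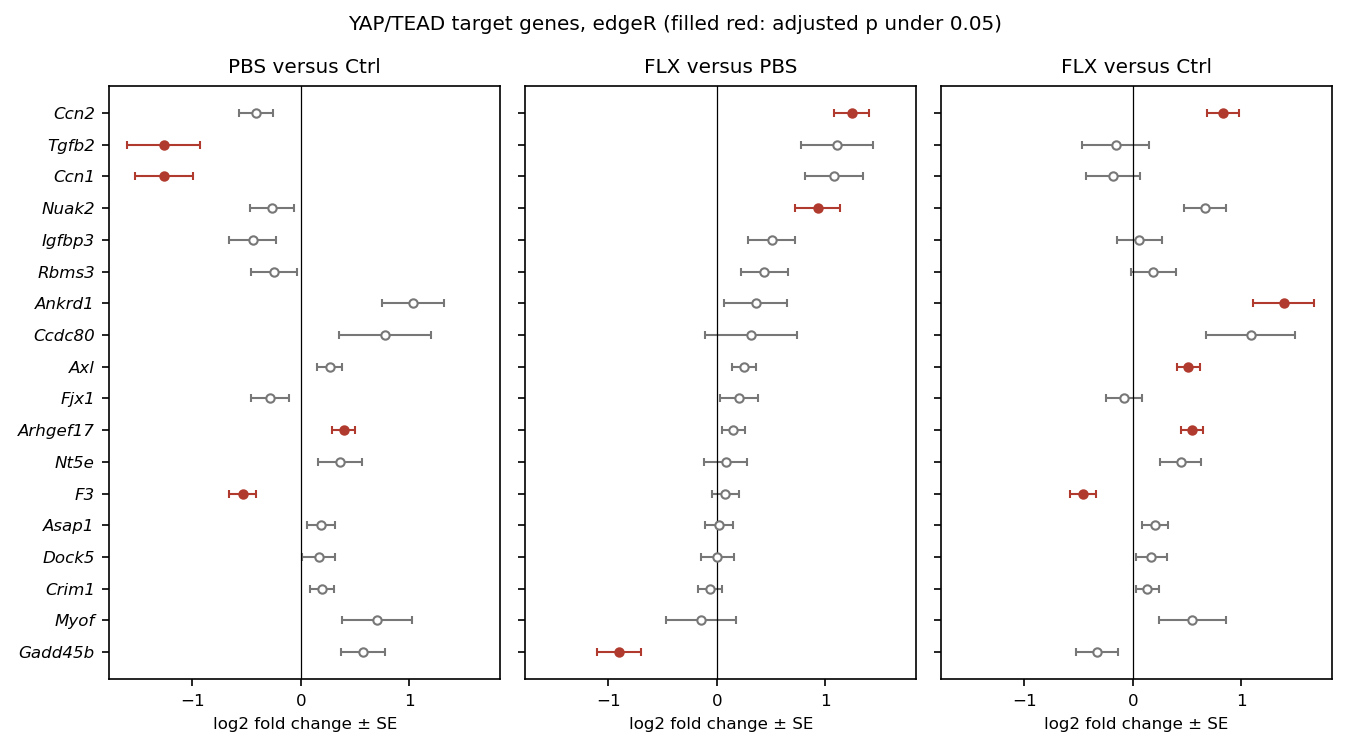
Log2 fold change ± standard error (horizontal axes) of the 18 YAP/TEAD target genes tested, in the 3 comparisons, ordered from the highest to the lowest FLX versus PBS value. Filled red points passed an adjusted p under 0.05 in edgeR over 17 mice. Ccn2 heads the second panel at 1.25 and Gadd45b ends it at -0.90.

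The rest of the pathway was read in 51 further genes, of which 49 were in the table and 48 were tested. They hold the MOB1 co-activators of LATS, the other TEAD and VGLL genes, angiomotins, MAP4K and TAO kinases, striatins and junction proteins. Of these, 1 was higher and 0 lower in PBS versus Ctrl, where 2.14% of all genes were higher and 1.67% lower. In FLX versus PBS 0 of 48 were called by edgeR (5 at an unadjusted p under 0.05, and 2 called by DESeq2), against 0.306% of all genes higher and 0.420% lower. In FLX versus Ctrl 4 were higher and 0 lower, against 2.08% and 1.59%. Log2 fold changes of this list were positive for 38, 35 and 43 of the 48, against 48.9%, 49.5% and 48.8% of all genes. Their medians were 0.08, 0.10 and 0.16. By a test of gene sets, the study reported genes of hippo signaling as down-regulated by FLX under CSDS. Its gene set and method were not those used here, and its result was not tested.

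The gene called in PBS versus Ctrl was Csnk1e, which encodes a casein kinase that takes part in the degradation of YAP. It was at 1.36 to 1.76 FPKM in Ctrl and at 2.43, 1.61, 1.79, 1.93 and 2.65 in PBS replicates 1 to 5 (left-out mouse 3.02), a log2 fold change of 0.51 (standard error 0.12, edgeR adjusted p = 0.0287). It no longer passed when Ctrl replicate 1, 2, 5 or 6, or PBS replicate 1, 4 or 5, was omitted (edgeR adjusted p = 0.0523 to 0.101). In FLX versus PBS the smallest p values were those of Vgll3 (log2 fold change 1.01, edgeR adjusted p = 0.106), Dchs1 (0.49, edgeR adjusted p = 0.131) and Ajuba (0.41, edgeR adjusted p = 0.252). Ajuba encodes a LIM protein that inhibits LATS, and Dchs1 a protocadherin that binds FAT4.

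In FLX versus Ctrl, Strn3, encoding a striatin of the phosphatase complex that opposes the MST kinases, rose from 3.50 to 5.09 FPKM in Ctrl to 5.04 to 6.60 in FLX. Its log2 fold change was 0.40 (standard error 0.08, edgeR adjusted p = 0.0147), kept without any 1 mouse. Strn4, of the same family, was at 4.82 to 6.06 FPKM in Ctrl and 6.32 to 7.07 in FLX, without overlap, with 0.25 (standard error 0.07, edgeR adjusted p = 0.0443). That call was kept only without Ctrl replicate 3, Ctrl replicate 6, FLX replicate 4 or PBS replicate 5 among the 17 fits that left out 1 mouse, and it was lost with all 6 PBS mice (edgeR adjusted p = 0.0759). Vgll3, encoding a TEAD co-factor, went from 0.156 to 0.428 FPKM in Ctrl to 0.400 to 1.16 in FLX (log2 fold change 1.06, standard error 0.26, edgeR adjusted p = 0.0330), and no longer passed when Ctrl replicate 1, 5 or 6, or FLX replicate 2, 4, 5 or 6, was omitted (edgeR adjusted p = 0.0515 to 0.0772). Frmd6, encoding an upstream FERM-domain protein, had 0.65 (standard error 0.16, edgeR adjusted p = 0.0330) and no longer passed when Ctrl replicate 1, 2, 4, 5 or 6, or FLX replicate 4, 5 or 6, was omitted (edgeR adjusted p = 0.0501 to 0.0796). Without Ctrl replicate 3 the called genes of this list numbered 6, 0 and 18. Over all 20093 genes tested they were then 916 higher and 746 lower, 104 and 146, and 1557 and 1542.

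**Figure D5:**
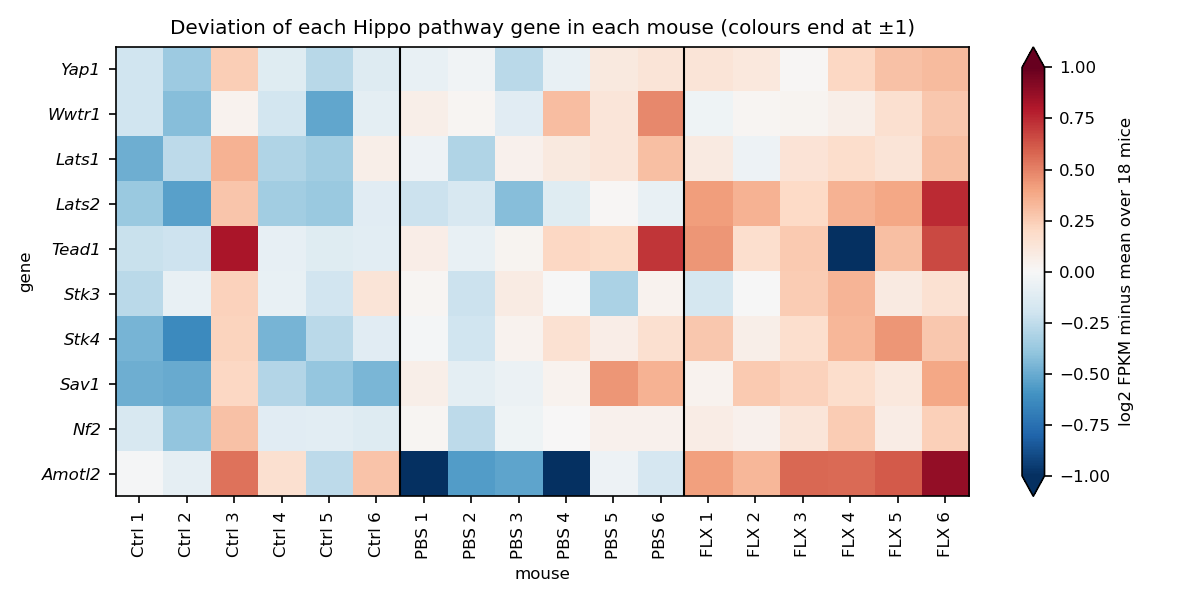
Log2 FPKM of the 10 Hippo pathway genes (vertical axis) in each of the 18 mice (horizontal axis), as the difference from the gene's mean over the mice (colour scale, log2, ending at ±1). The column of Ctrl replicate 3 is above the other Ctrl columns for all 10 genes, the Amotl2 row is lowest in PBS replicates 4 and 1, and the Tead1 cell of FLX replicate 4 (0.266 FPKM) is beyond the colour scale.

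The 10 genes varied together over single mice to unequal degrees. Over the 17 mice, as deviations from the group means in log2 counts scaled to library size, Pearson's r was above 0 for 41 of 45 pairs of genes, with a median of 0.43 and a range from -0.20 to 0.91, and the highest value was that of Yap1 with Lats2. The 4 pairs below 0 all held Amotl2 or Stk3. Amotl2 had r of -0.07 with Wwtr1, -0.20 with Stk3, 0.02 with Stk4 and 0.02 with Nf2, and Stk3 had -0.03 with Yap1 and -0.15 with Tead1. With Ctrl replicate 3 dropped but the group means still including it, the median r was 0.30 and 37 of the 45 pairs were above 0. The other Ctrl mice then keep an offset from that mouse in every gene. These 2 values therefore cannot tell how far the genes vary together without it. These values share libraries and are descriptions. The highest of the 6 Ctrl mice was replicate 3 for all 10 genes. In the PBS group with all 6 mice the highest was replicate 6 for 5 genes and replicate 5 for 4, and in FLX it was replicate 6 for 7 genes. The 5 genes most like the mean of the 10 standardised profiles over the 17 mice, among 12089 genes with a mean of at least 1 FPKM, were Mtmr3 (Pearson's r = 0.966), Ern1 (0.964), Bptf (0.956), Prrc2a (0.941) and Smcr8 (0.939). Ern1 encodes the endoplasmic reticulum stress sensor IRE1 alpha and Bptf a subunit of a chromatin remodelling complex. Bptf was at 1.67 ± 0.518 FPKM in Ctrl (SD, n = 6), 1.85 ± 0.259 in PBS (SD, n = 5) and 2.20 ± 0.224 in FLX (SD, n = 6).

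Markers of other cell types also moved with the groups. The 5 neutrophil markers summed to 1.29 to 3.18 FPKM in Ctrl, 6.50 to 25.4 in the 5 PBS mice (59.1 in the left-out mouse) and 0.219 to 4.77 in FLX, with 2 of 4 tested higher in PBS versus Ctrl (S100a8 and S100a9, which also served to find the left-out mouse) and 1 of 4 lower in FLX versus PBS (S100a8). Single neutrophil markers were at 0 in 9 values of the Ctrl group and 6 of the FLX group. Fibroblast and mural cell markers summed to 24.0 to 34.5 FPKM in Ctrl, 35.1 to 54.7 in PBS (86.7 in the left-out mouse) and 32.4 to 82.5 in FLX. Of these 5, 1 (Acta2) was called higher by edgeR in each stressed group than in Ctrl. Log2 fold changes were positive for 3 of 5 in PBS versus Ctrl (median 0.38) and 5 of 5 in FLX versus Ctrl (median 0.43). In FLX versus PBS 5 of 5 were positive (median 0.32). There edgeR called 0, with 1 at an unadjusted p under 0.05, and DESeq2 called 1. The podocyte markers Nphs1, Podxl, Wt1 and Synpo had log2 fold changes of 0.23, 0.28, 0.35 and 0.38 in PBS versus Ctrl (edgeR adjusted p = 0.0892 to 0.244) and of 0.10, 0.31, 0.45 and 0.34 in FLX versus Ctrl (edgeR adjusted p = 0.0989 to 0.574), and missed the edgeR threshold in both. Their unadjusted edgeR p values were 0.0281, 0.0233, 0.0375 and 0.00540 in PBS versus Ctrl. In FLX versus Ctrl they were 0.285, 0.00916, 0.00729 and 0.00766. DESeq2 called 1 podocyte marker in PBS versus Ctrl and 3 in FLX versus Ctrl. In FLX versus PBS their log2 fold changes were -0.13 to 0.10 (edgeR adjusted p = 0.708 to 0.959). Of 3 distal convoluted tubule markers Trpm6 was higher than in Ctrl in PBS (log2 fold change 0.77, edgeR adjusted p = 0.00551) and in FLX (0.65, edgeR adjusted p = 0.0168). Of 3 collecting duct principal cell markers Scnn1g was higher than in Ctrl in PBS (0.35, edgeR adjusted p = 0.0458) and in FLX (0.37, edgeR adjusted p = 0.0312). Markers of proximal tubule, thick ascending limb, intercalated cell and macrophage had 0 called by edgeR in each comparison, with 0 to 2 of a list at an unadjusted p under 0.05 and 1 called by DESeq2 (macrophage, FLX versus Ctrl). Fat cell markers had median sums of 6.85, 38.8 and 23.8 FPKM in Ctrl, PBS and FLX and highest sums of 71.4, 594 and 403 FPKM, with 0 of 5 called by edgeR in each comparison (2, 0 and 1 at an unadjusted p under 0.05, and 1, 0 and 0 called by DESeq2). The part of these cells in the differences of the Hippo genes was not tested.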

How the data were processed

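Libraries of poly(A) RNA were read as pairs on an Illumina NovaSeq 6000, with molecular identifiers in the adapters. Per the study's methods, the authors used fastp for cleaning, HISAT-3N for alignment (GRCm38) and StringTie for transcripts. The submitters' processing notes name cutadapt 1.9, HISAT2 2.0.4, UMI-tools, StringTie 1.3.4d, DESeq2 and edgeR. The authors deposited FPKM and estimated counts per gene and mouse, the latter as whole numbers. Which tool gave them is not stated in the sources read. No 2 mice had identical count columns. The members and gene lists were chosen with earlier results of these data known.

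The counts were used as deposited, and FPKM served for levels. Genes were kept by filterByExpr, scaled by TMM and tested, two-sided, with the quasi-likelihood test of edgeR 4.0.16 (R 4.3.3) in 1 model over the 3 groups and 17 mice, with Benjamini-Hochberg adjustment over 20251 genes and a threshold of 0.05. PBS replicate 6 was left out as the PBS mouse with the highest mean rank of S100a8, S100a9, Ccr1, Sphk1 and Cxcl1. Alternatives were all 6 PBS mice, RLE and upper-quartile scaling, DESeq2 1.42.0, no filter, limma 3.58.1 with pseudocounts of 0.1 and 1, fits of 2 groups, a replicate block, FLX replicates 1 and 2 alone, and leaving out each mouse. The script was tested on simulated data. Named besides the members were genes of the target and pathway lists that were called in any comparison, otherwise the 3 with the smallest p, always Ccn1, Ccn2 and Ankrd1, and the genes most like the members' mean (5) or Amotl2 (3). Nothing in the labels tells whether mice shared a cage or a processing day, so p values measure the spread between these mice.

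Markers fixed for cell types were Slc34a1, Lrp2, Slc5a2, Slc22a6 and Slc22a8 (proximal tubule), Umod, Slc12a1 and Kcnj1 (thick ascending limb), Slc12a3, Pvalb and Trpm6 (distal convoluted tubule), Aqp2, Aqp3 and Scnn1g (collecting duct principal cell), Atp6v1g3, Slc4a1 and Slc26a4 (intercalated cell), Adgre1, Cd68, C1qa, C1qb and Csf1r (macrophage), S100a8, S100a9, Csf3r, Cxcr2 and Retnlg (neutrophil), the podocyte and endothelial genes named in the text (1 marker is not reported here), Pdgfrb, Pdgfra, Col1a1, Dcn and Acta2 (fibroblast and mural cell), and Adipoq, Plin1, Cidec, Ucp1 and Cidea (fat cell).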

Additional observations from a re-analysis of the deposited data

Results flagged for a closer look

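Each gene's FPKM within a group was tested for a single mouse far from the rest, by Dixon's ratio of the gap to the whole range. Of 39 such sets of values 9 were marked, where chance marks about 1 in 20. Ctrl replicate 3 was marked high for Yap1 (6.74 FPKM, against 4.40 to 5.21 in the other Ctrl mice), Tead1 (3.90, against 1.89 to 2.09), Sav1 (6.67, against 4.09 to 4.73) and Nf2 (12.4, against 7.69 to 9.42). PBS replicate 6, left out of the comparisons, was marked high for Tead1 (3.63 FPKM, against 2.09 to 2.56 in the other PBS mice) and Ccn2 (41.4, against 7.89 to 18.9). PBS replicate 2 was marked low for Nf2 (8.43 FPKM, against 9.82 to 10.4). FLX replicate 6 was marked high for Lats2 (5.23 FPKM, against 3.60 to 4.18 in the other FLX mice) and FLX replicate 4 low for Tead1 (0.266, against 2.49 to 3.50).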

How the results depend on the processing

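Numbers of genes called are given for the first (PBS versus Ctrl), second (FLX versus PBS) and last (FLX versus Ctrl) comparison, and were 1, 1 and 3 for the 10 Hippo genes, 4, 3 and 5 for the targets and 1, 0 and 4 for the other pathway genes. With all 6 PBS mice, 3 Hippo genes were called in the first comparison and 2 targets in the last. With upper-quartile scaling 2 Hippo genes were called in the second comparison. With DESeq2 the Hippo genes called numbered 3, 2 and 3, and the other pathway genes 3, 2 and 11. Over all 20251 genes DESeq2 also called more, with 794 higher and 630 lower, 251 and 247, and 927 and 718. Without a filter on low counts 1 Hippo gene and 1 other pathway gene were called in the last comparison, with 2, 1 and 4 targets. With limma on log2(FPKM + 0.1) or log2(FPKM + 1) 2 Hippo genes were called in the second comparison, with 2 targets in the first and 0 and 8 other pathway genes in the first and last, and without a filter 0 Hippo genes, 2 targets and 0 other pathway genes in the first and 7 other pathway genes in the last. Fits of the 2 groups compared called 0 Hippo genes, 2 targets and 0 other pathway genes in the first comparison and 1 target in the second. With FLX replicates 1 and 2 alone 0 genes of any list were called in the second and last comparisons. Leaving out 1 mouse gave 0 to 4, 1 to 2 and 1 to 7 Hippo genes, 1 to 5, 1 to 3 and 4 to 6 targets, and 0 to 6, 0 to 1 and 1 to 18 other pathway genes, with the highest numbers of Hippo and other pathway genes in the first and last comparisons without Ctrl replicate 3. Without that mouse calls over all genes rose too, as given above. The cause of these changes was not tested.

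Mice with the same replicate number were compared for signs of pairing. Of 18 pairs of mice with the same number 2 had a correlation over 0.1 (range -0.22 to 0.22), and 3 of 18 mice correlated best with their own number. Low correlations cannot tell whether mice of the same number shared a cage or a processing day. With the replicate block 1, 1 and 1 Hippo genes, 2, 1 and 3 targets and 0, 0 and 1 other pathway genes were called.

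Directions of the 10 Hippo genes turned only where the log2 fold change was near 0 or Tead1 was concerned. Under upper-quartile scaling Tead1 was at -0.0061 in PBS versus Ctrl and -0.016 in FLX versus Ctrl. With all 6 PBS mice Sav1 was at -0.011 in FLX versus PBS. With limma Wwtr1 was at 0.0042 in FLX versus PBS on log2(FPKM + 0.1), filtered or not, and at 0.0037 on log2(FPKM + 1). With FLX replicates 1 and 2 alone Lats1 was at -0.015, Tead1 at 0.18 and Stk3 at -0.061 in FLX versus PBS, and Stk3 at -0.087 in FLX versus Ctrl. Tead1 in FLX versus Ctrl was at -0.16 with limma on log2(FPKM + 0.1), filtered or not, at -0.022 on log2(FPKM + 1) and at -0.069 with the replicate block. Leaving out 1 mouse moved Tead1 from -0.012 to 0.23 (PBS versus Ctrl), from -0.14 to 0.21 (FLX versus PBS) and from -0.097 to 0.26 (FLX versus Ctrl), Stk3 from -0.075 to 0.031 (PBS versus Ctrl), and Lats1 from -0.015 to 0.097 and Sav1 from -0.023 to 0.11 (FLX versus PBS).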
